A study of Mus musculus with 22 samples.

Results

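The 36 genes described here form the Toll-like receptor (TLR) pathway: 12 receptors, the co-receptors Cd14 and Ly96, 4 adaptors, the kinases and scaffolds that relay the signal, 2 interferon regulatory factors and 3 co-stimulatory outputs. They were taken by name from a list of receptors and adaptors. No measured value enters that rule, but earlier results of these data were known when the list was chosen. All 36 were found among the 54373 genes counted. The reads come from sorted mouse lung epithelial cells (EC), alive and CD45-EpCAM+, of C57BL/6 wildtype (WT) mice and of mice that lack AhR (AhR-KO) or CYP1B1 (CYP1B1-KO), backcrossed to C57BL/6. AhR is the aryl hydrocarbon receptor, a transcription factor activated by environmental ligands, and CYP1B1 is an enzyme that AhR induces. Both deletions are germline, so every cell of these mice carries them, and mice of both sexes over 7 weeks of age were used. ECs were taken at steady state (labelled naive; 4 WT, 3 AhR-KO and 3 CYP1B1-KO libraries) or after allergy to house dust mite extract (HDM; 4 libraries of each genotype). For HDM, mice were sensitized once through the nose, challenged from 8 days later on 4 consecutive days, and lungs were collected 72 h after the last dose. Which libraries came from separate mice is not stated, so p-values measure the spread between libraries, which may in part be technical.

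TLRs recognize conserved microbial molecules, at the cell surface (Tlr1, Tlr2, Tlr4, Tlr5, Tlr6) or in endosomes (Tlr3, Tlr7, Tlr8, Tlr9, Tlr11, Tlr12, Tlr13). They signal through the adaptors MyD88 and TRIF (gene Ticam1), assisted by TIRAP and TRAM (gene Ticam2), to IRAK kinases, TRAF6, the TAK1 kinase complex and the IKK kinases, which free NF-kappaB, and to TBK1, which activates IRF3. In the airway, ECs are known to respond to bacterial flagellin through TLR5, to double-stranded RNA through TLR3 and to lipopolysaccharide through TLR4 with its partners CD14 and MD2 (gene Ly96), whereas TLR7 to TLR13, IRF5 and the CD80 and CD86 ligands are best known from macrophages and dendritic cells.

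Promoter sequence from RefSeq (GRCm38.p6) was at hand for 27 of the 36 genes. The genes without an entry are Tlr4, Tlr7, Cd14, Ly96, Ticam2, Ikbkb, Tab1, Cd40 and Cd86. The 250 bases before the start are printed for Tlr5, a receptor that was well counted at steady state and fell after HDM, and for Tlr9 and Tlr11, endosomal receptors that were barely counted at steady state and differed between AhR-KO and WT after HDM. They lie at chr1:182954538-182954787, chr9:106222348-106222597 and chr14:50357664-50357913, all on the plus strand and directly before the first annotated base of the gene, and no annotated exon overlaps them. Capitals mark GAGGAAG, a core motif of ETS factors such as the myeloid factor PU.1, and, in Tlr11, also GAAA, any 2 bases and GAAA, a motif of interferon regulatory factors.
Tlr5: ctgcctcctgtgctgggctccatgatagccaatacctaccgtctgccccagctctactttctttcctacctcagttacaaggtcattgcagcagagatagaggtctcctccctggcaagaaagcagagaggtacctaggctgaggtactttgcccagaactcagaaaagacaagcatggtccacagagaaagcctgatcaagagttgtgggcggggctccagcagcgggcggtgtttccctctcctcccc
Tlr9: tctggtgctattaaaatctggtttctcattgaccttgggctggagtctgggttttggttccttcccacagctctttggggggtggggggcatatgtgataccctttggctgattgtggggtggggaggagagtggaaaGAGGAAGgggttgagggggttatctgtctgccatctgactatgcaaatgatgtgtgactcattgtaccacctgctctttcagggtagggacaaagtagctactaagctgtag
Tlr11: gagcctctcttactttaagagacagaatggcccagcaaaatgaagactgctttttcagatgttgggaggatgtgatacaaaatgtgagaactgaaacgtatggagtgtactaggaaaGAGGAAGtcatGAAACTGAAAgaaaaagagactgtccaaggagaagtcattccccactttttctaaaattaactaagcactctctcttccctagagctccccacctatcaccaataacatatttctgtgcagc

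The motifs were searched on both strands of these windows, 36 windows for the 27 genes and 32851 for all genes. GAGGAAG was found for 8 genes (Tlr1, Tlr9, Tlr11, Tlr13, Ticam1, Traf6, Tab2 and Ikbkg) and in 10.6% of all windows. GAAA, any 2 bases and GAAA was found for Tlr6, Tlr11 and Myd88 and in 2.98% of all windows, and GGG, any 2 bases and TTTCC, an NF-kappaB motif, was found for Tlr3 and Map3k7 and in 1.41% of all windows. TNGCGTG, the xenobiotic response element that AhR binds, was found in 0 of the 36 windows and in 4.1% of all windows. A match is a description of the letters, and the absence of a match says only that these letters are not in this window.

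The libraries held 9654825 to 17878442 counts. Without the predicted genes that dominate some of them, 1180756 to 16447855 protein-coding counts remained after HDM, so that 3 counts were worth 0.107 to 1.36 counts per mio (CPM) after HDM and 0.138 to 0.213 CPM at steady state. Counts of Ahr were not lower in the libraries labelled AhR-KO (12.8 to 25.5 CPM after HDM, against 9.62 to 20.0 in WT) and those of Cyp1b1 were higher in the libraries labelled CYP1B1-KO (4.98 to 13.5 against 0.897 to 2.31). At steady state Ahr was higher in every AhR-KO library (15.5 to 20.1 CPM) than in every WT library (6.38 to 12.3). Cyp1b1 was there at 3.62 to 5.89 CPM in CYP1B1-KO and at 0.644 to 1.91 in WT. Reads were summed over all exons, so these counts do not show the deletions, and the genotypes below are those of the labels. Epcam was counted in every library (68.2 to 312 CPM), and Ptprc, which encodes the CD45 that the sort selected against, was at 2.02 to 52.6 CPM at steady state and at 14.8 to 669 CPM after HDM. The summed CPM of 18 pan-hematopoietic markers was 105 to 392 at steady state. After HDM it was 5276, 2259, 6928 and 4281 in WT, 1430, 1350, 272 and 265 in AhR-KO and 2115, 410, 6836 and 5632 in CYP1B1-KO (replicates 1 to 4), and none of the 18 markers was at 0 throughout any group. WT and AhR-KO did not overlap in this sum. AhR-KO HDM replicates 3 and 4 carried Y-linked reads (Ddx3y at 67.3 and 69.6 CPM) and the other 10 HDM libraries did not (at most 0.0859 CPM), whereas all 10 steady-state libraries did (at least 19.7 CPM). The count tables of the states are named as separate runs, so state and run cannot be told apart. In WT and CYP1B1-KO, state and the presence of Y-linked reads cannot be told apart either, and Tlr7, Tlr8, Tlr13, Irak1 and Ikbkg are X-linked. In bulk RNA, the same holds for fewer cells of a type and less RNA per cell.

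**Figure D1:**
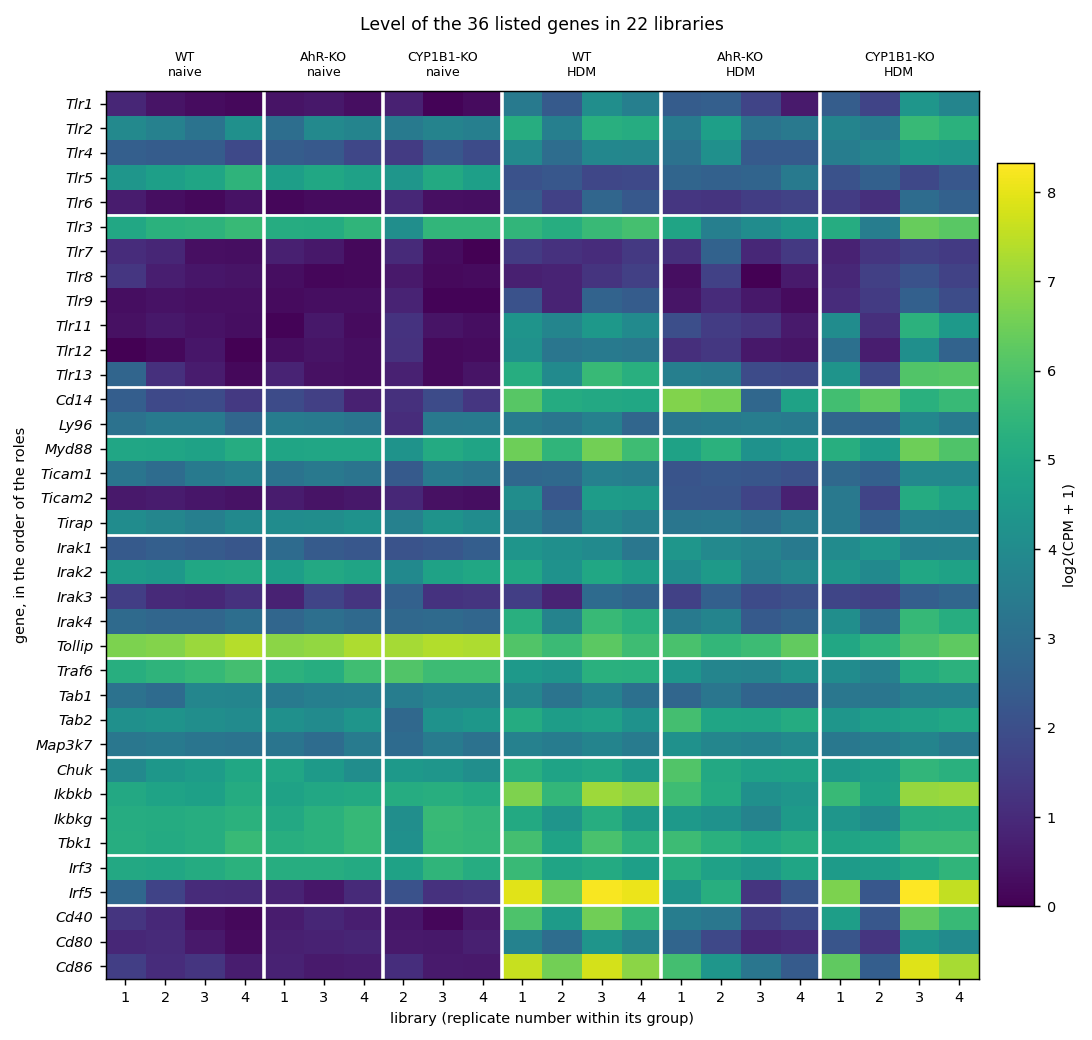
Level of the 36 genes (rows, in the order of their roles, white lines between roles) in the 22 libraries (columns, by group and replicate number), as log2(CPM + 1). Tlr5 and Tollip are brighter in the 10 steady-state libraries, and Irf5, Cd86, Cd40, Tlr13 and Tlr11 are bright in the WT HDM libraries and in 3 of the 4 CYP1B1-KO HDM libraries and dimmer in the AhR-KO HDM libraries.

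At steady state, the ECs of all genotypes expressed the machinery of the pathway but few of its receptors. Per kilobase of exon, the highest of the 36 in WT was Tollip, an inhibitor that binds IRAK kinases, at a mean level of 25.2 CPM per kb, followed by Myd88 at 11.6. Among the receptors the order was Tlr3, Tlr5, Tlr2 and Tlr4, at mean levels of 7.53, 5.96, 4.20 and 0.723 CPM per kb. Over the 4 WT libraries Tlr3 (5.86 to 9.06 CPM per kb) and Tlr5 (4.07 to 8.58) overlapped, as did Tlr5 and Tlr2 (2.65 to 5.67), whereas Tlr4 (0.464 to 0.859) lay below Tlr2 in every library. The remaining 8 receptors had means of at most 0.430 CPM per kb in WT. Tlr1, Tlr6, Tlr8, Tlr9, Tlr11, Tlr12 and Ticam2 did not pass the low-count filter at steady state, with 0 to 25 counts per WT library, and 29 of the 36 genes were tested.

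The co-receptor Cd14 was at 4.53, 2.59, 2.71 and 1.61 CPM in the WT steady-state libraries, and Ly96 at 7.82, 9.69, 9.82 and 5.66. The co-stimulatory genes Cd40, Cd80 and Cd86 were at most 1.91 CPM in all 10 steady-state libraries. The IRAK kinases, Tollip, the TRAF6 and TAK1 group and the IKK group were counted in every steady-state library, from Irak3, a kinase-dead inhibitor, at 0.719 to 4.96 CPM, to Tollip at 102 to 167 CPM.

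No gene of the pathway passed the test between genotypes at steady state. For AhR-KO against WT, edgeR's quasi-likelihood test called 0 of the 29 tested (0.00% of all genes tested), with 1 at an unadjusted p under 0.05 (1.69% of all genes) and 0 called by the likelihood ratio test, DESeq2 and limma voom. For CYP1B1-KO against WT it also called 0 (0.0129% of all genes), with 1 unadjusted (5.80%), and for AhR-KO against CYP1B1-KO 0 (0.00643% of all genes), with 0 unadjusted (4.23%), again with 0 by each of the other tools. The members of lowest p were Irf5, Cd86 and Tlr13 for AhR-KO against WT. Irf5, a transcription factor downstream of MyD88, was at 5.91, 2.16, 1.02 and 0.966 CPM in WT and at 0.779, 0.402 and 0.984 in AhR-KO, which gave -1.86 ± 0.71 on the log2 scale (unadjusted p = 0.0218 and adjusted p = 1.00 from edgeR). The groups overlapped, and the highest value was that of WT replicate 1, the steady-state library with the highest sum of hematopoietic markers. In the same comparison the log2 fold changes were -1.09 ± 0.51 (standard error) for Cd86 and -2.13 ± 1.03 for Tlr13, which was at 5.49 CPM in WT replicate 1 and at 0.138 to 1.23 in the other WT libraries.

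For CYP1B1-KO against WT at steady state, the lowest p-values were those of Tlr13 (log2 fold change -2.34 ± 1.06, standard error, edgeR adjusted p = 0.822), Tlr4 (-0.63 ± 0.35) and Cd86 (-0.91 ± 0.51). The hematopoietic markers had a median log2 fold change of -1.63 there, with 0 called, and with their level in the model Tlr13 was at -0.16. Between the knockouts they were those of Irf5 (-1.41 ± 0.74, AhR-KO minus CYP1B1-KO, edgeR adjusted p = 0.936), Traf6 (-0.34 ± 0.20) and Irak1 (0.35 ± 0.27). Irf5 did not overlap between the knockouts, and the other 5 overlapped in their comparisons. Of the 29 members tested between the knockouts, 2 were higher (Cd40 and Cd80) and 2 lower (Irf5 and Ikbkb) without overlap. Of all genes, 12.7% did not overlap in either direction.

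After HDM, the repertoire of receptors counted in the sorted ECs changed in every genotype. In WT, 19 of the 36 genes were higher (19.0% of all genes tested were) and 2 were lower (19.4% of all genes). In AhR-KO, 14 were higher (10.6% of all genes) and 6 lower (10.1%), and in CYP1B1-KO, 19 were higher (15.5%) and 3 lower (17.9%). The median log2 fold change of the 36 was 1.24 in WT, 0.93 in AhR-KO and 1.31 in CYP1B1-KO. Of these genes, 11 were higher in all 3 genotypes, 2 were lower in all 3, and 7 passed the test in neither direction in any. The 7 genes that failed the filter at steady state passed it in these fits through the HDM libraries, so that counts of calls are given as a description. The sum of hematopoietic markers rose between the states beside them, from at most 392 CPM to at least 2259 CPM in WT. It went from 140 to 169 CPM to 265 to 1430 in AhR-KO, and from 105 to 159 CPM to 410 to 6836 in CYP1B1-KO. Of the 18 markers, 18 were called higher in WT, 15 in AhR-KO and 18 in CYP1B1-KO (19.0%, 10.6% and 15.5% of all genes).

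**Figure D2:**
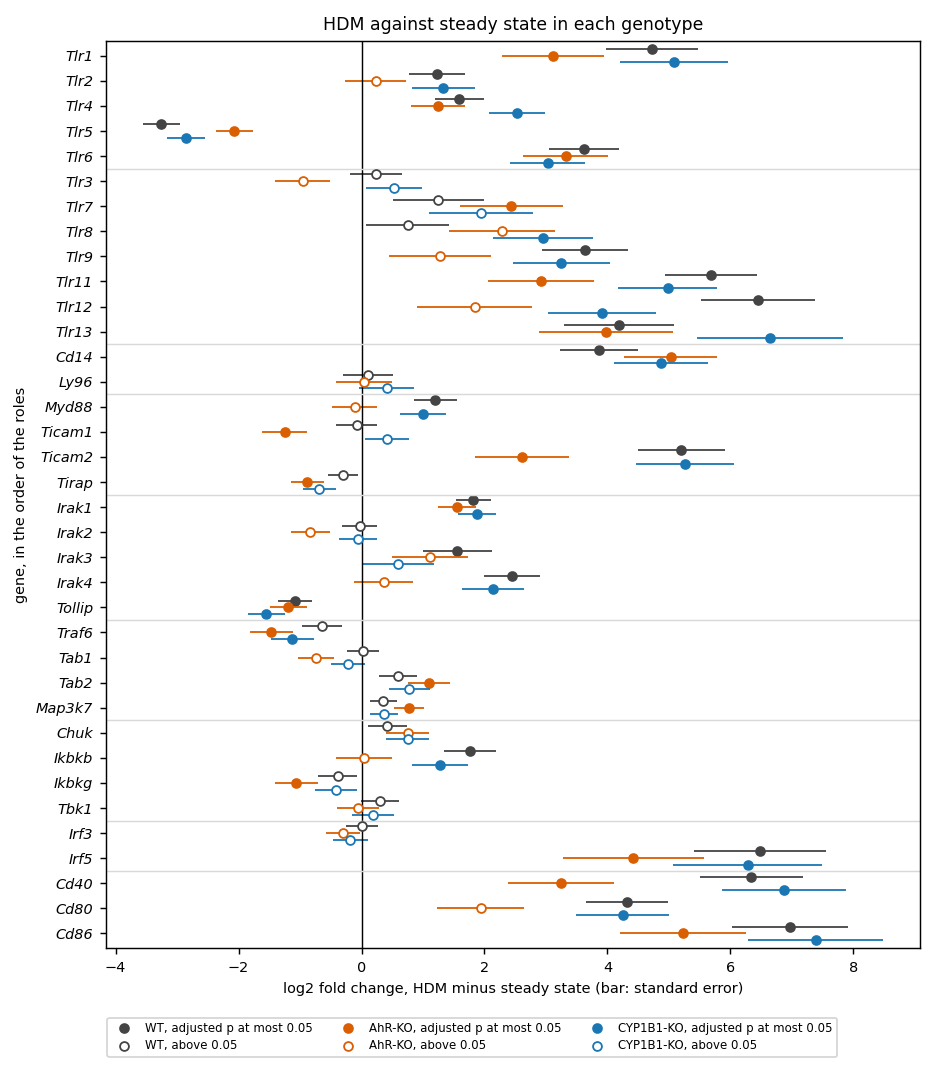
Log2 fold change of HDM against steady state (x axis) for each of the 36 genes (y axis) in WT, AhR-KO and CYP1B1-KO libraries, with standard errors as bars. Filled points passed an adjusted p of 0.05 and open points did not. Tlr5 and Tollip lie left of 0 in all 3 genotypes, and Cd14, Cd86, Cd40, Irf5, Tlr1, Tlr6, Tlr11, Tlr13, Ticam2, Irak1 and Tlr4 lie right of 0 with filled points in all 3.

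Tlr5 (chr1:182954788-182976044 of GRCm38, plus strand), the receptor for flagellin, fell in all genotypes. It was at 19.5, 24.9, 28.7 and 41.1 CPM in WT at steady state and at 3.23, 3.81, 2.43 and 2.56 after HDM. In AhR-KO it was at 24.3, 30.0 and 25.8 at steady state and at 5.48, 4.98, 5.46 and 9.54 after HDM, and in CYP1B1-KO at 19.9, 32.0 and 25 and at 3.25, 4.90, 2.52 and 3.81. Every HDM library lay below every steady-state library, in each genotype and across them. The log2 fold changes were -3.26 ± 0.30 (standard error) in WT, -2.07 ± 0.30 in AhR-KO and -2.86 ± 0.31 in CYP1B1-KO (edgeR adjusted p = 1.30e-06, 0.000187 and 3.56e-06). With the mean level of the hematopoietic markers added to the model they were -1.93, -1.27 and -1.57, and the adjusted p was 0.103, 0.0255 and 0.0795. The summed CPM of 6 alveolar type 1 markers fell beside Tlr5, from 14060 to 25553 in the steady-state libraries to 599 to 4369 in WT, 3143 to 18580 in AhR-KO and 418 to 3958 in CYP1B1-KO after HDM, and the part of this in the fall was not tested.

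Tollip (chr7:141874813-141918507, minus strand) was the other gene that fell in all genotypes. It was at 102 to 167 CPM in the 4 WT libraries at steady state and at 66.3, 49.7, 73.5 and 51.5 after HDM, without overlap. The log2 fold changes were -1.08 ± 0.28 in WT, -1.19 ± 0.30 in AhR-KO and -1.55 ± 0.30 in CYP1B1-KO (edgeR adjusted p = 0.00347, 0.00766 and 0.000300), and with the marker covariate they were -1.09, -1.19 and -1.56, none of which passed the test (adjusted p = 0.486, 0.0770 and 0.160 from edgeR). Traf6, the ubiquitin ligase shared by MyD88-dependent pathways, fell in AhR-KO (-1.47 ± 0.35, edgeR adjusted p = 0.00635) and CYP1B1-KO (-1.13 ± 0.35, adjusted p = 0.0144) and was -0.64 in WT. In AhR-KO the adaptors Ticam1 (-1.25 ± 0.37) and Tirap (-0.88 ± 0.27) and the IKK subunit Ikbkg (-1.06 ± 0.35) were also lower (edgeR adjusted p = 0.0186, 0.0246 and 0.0320).

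Among the surface receptors, Tlr1, Tlr6 and Tlr4 were higher in all 3 genotypes and Tlr2 in WT and CYP1B1-KO. Tlr2, which forms heterodimers with TLR1 and TLR6 to recognize lipoproteins, was at 14.0, 11.6, 7.99 and 17.1 CPM in WT at steady state and at 35.4, 11.2, 37.3 and 34.5 after HDM. WT replicate 2 stayed within the steady-state range, and so the groups overlapped (log2 fold change 1.23 ± 0.46, edgeR adjusted p = 0.0372). Without any of WT HDM replicates 1, 3 and 4 or steady-state replicates 1, 2 and 3 the call was lost (edgeR adjusted p of 0.0584 to 0.110). In AhR-KO, Tlr2 was at 10.0, 24.9, 7.73 and 9.19 CPM after HDM against 7.01, 14.2 and 12.6 at steady state, which also overlapped. Tlr4, the lipopolysaccharide receptor, was at 14.2, 6.85, 13.5 and 13.3 CPM in WT after HDM against at most 4.77 at steady state (1.59 ± 0.40, edgeR adjusted p = 0.00268). Its fold change was 2.53 ± 0.46 in CYP1B1-KO and 1.24 ± 0.44 in AhR-KO (edgeR adjusted p = 0.0463), where replicates 3 and 4, at 4.09 and 4.06 CPM, lay within the steady-state range. The AhR-KO call was lost in 9 of 18 alternatives, among them those without HDM replicate 1 or 2 or any steady-state replicate (edgeR adjusted p of 0.0691 to 0.213). Of the 50-base stretches of Tlr1 and Tlr6, 15.4% and 12.3% also occur in other genes, among them each other, so reads may be split between them. Tlr1 rose by a log2 fold change of 4.72 in WT, 3.12 in AhR-KO and 5.08 in CYP1B1-KO, and Tlr6 by 3.62, 3.32 and 3.03.

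Cd14 showed the same direction in every genotype. It was at 70.8, 33.7, 31.2 and 29.7 CPM in WT after HDM, at 107, 95.3, 5.91 and 27.0 in AhR-KO and at 54.6, 74.6, 38.0 and 47.9 in CYP1B1-KO, against at most 4.53 in the 10 steady-state libraries. All HDM libraries lay above all steady-state libraries, and AhR-KO HDM replicate 3 was the lowest of them. The log2 fold changes were 3.86 ± 0.63, 5.03 ± 0.76 and 4.87 ± 0.76 (edgeR adjusted p = 6.56e-05, 0.000352 and 6.13e-05), and 2.68, 4.12 and 3.78 with the marker covariate (adjusted p = 0.365, 0.0119 and 0.0529). Within the HDM libraries, Cd14 was highest in AhR-KO replicates 1 and 2, where the summed CPM was 1430 and 1350 for the hematopoietic markers, 368 and 796 for those of macrophages, monocytes and dendritic cells (568 to 2169 in WT) and 30.3 and 86.4 for those of granulocytes (28.5 to 55.4 in WT). The part of these cells in the Cd14 counts was not tested. Ly96, which encodes the partner of TLR4 that binds lipopolysaccharide, did not pass the test in any genotype, with log2 fold changes of 0.11 in WT, 0.04 in AhR-KO and 0.42 in CYP1B1-KO.

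Of the endosomal receptors, Tlr3 (chr8:45395665-45411080, minus strand) was the only one well counted at steady state, and it did not pass the test in any genotype. It was at 30.5, 38.6, 40.6 and 47.2 CPM in WT at steady state and at 43.6, 35.5, 49.2 and 57.2 after HDM, and in AhR-KO at 34.9, 34.1 and 42.1 and at 28.3, 11.2, 15.5 and 20.3. The WT groups overlapped, and all 4 AhR-KO HDM libraries lay below the AhR-KO steady-state libraries. In CYP1B1-KO, Tlr3 was at 16.3 to 43.8 CPM at steady state and at 10.7 to 81.6 after HDM, which overlapped. The log2 fold changes were 0.23 in WT, -0.95 in AhR-KO and 0.53 in CYP1B1-KO.

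The other endosomal receptors appeared mainly after HDM. Tlr11, a receptor for profilin, was at 0.230 to 0.432 CPM in WT at steady state and at 18.7, 12.9, 20.8 and 14.7 after HDM. Tlr12, its close relative, was at 0 to 0.406 CPM (0 to 6 counts) and at 17.5, 8.63, 9.59 and 8.91, and Tlr13, a receptor for bacterial ribosomal RNA, at 0.138 to 5.49 and at 35.6, 14.7, 47.2 and 37.1. None of the 3 overlapped between the states in WT, where 17.7% of all genes tested were higher without overlap. In CYP1B1-KO, Tlr11 was at 15.3, 1.15, 39.7 and 21.7 CPM, Tlr12 at 7.39, 0.576, 16.7 and 5.33 and Tlr13 at 18.9, 2.59, 66.1 and 69.8 after HDM. Replicate 2, with the lowest sum of hematopoietic markers of that group, was the lowest for all 3 genes. Tlr9, the receptor for unmethylated CpG DNA, was higher in WT and CYP1B1-KO, Tlr8 in CYP1B1-KO and Tlr7 in AhR-KO, each at no more than 5.33 CPM in any library.

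Among the adaptors, Ticam2, which links TLR4 to TRIF, rose in all genotypes (log2 fold change 5.20 ± 0.71 in WT, 2.61 ± 0.77 in AhR-KO and 5.26 ± 0.80 in CYP1B1-KO, from at most 0.922 CPM at steady state). It overlaps Tmed7 on the same strand over 14.5% of its exonic bases, and which gene those reads belong to is uncertain. Myd88, the adaptor of all receptors here but Tlr3, rose in WT from 29.3, 28.5, 27.1 and 34.5 CPM to 88.0, 42.1, 92.7 and 51.9, without overlap (1.20 ± 0.35, edgeR adjusted p = 0.00786). In AhR-KO it was at 28.5, 29.3 and 29.3 CPM at steady state and at 27.0, 38.6, 17.7 and 23.0 after HDM, a log2 fold change of -0.11. Irak1, an activating kinase, rose in every genotype (1.82 ± 0.28, 1.55 ± 0.31 and 1.88 ± 0.31). With the marker covariate its fold changes were 1.82, 1.56 and 1.88. The call then held in AhR-KO only (edgeR adjusted p = 0.226 in WT and 0.0643 in CYP1B1-KO). Irak4, the kinase that MyD88 recruits first, rose in WT (2.45 ± 0.45) and CYP1B1-KO (2.14 ± 0.50) and had a log2 fold change of 0.36 in AhR-KO. Ikbkb, the catalytic IKK subunit of the canonical pathway, rose by 1.76 ± 0.42 in WT and 1.28 ± 0.46 in CYP1B1-KO. Tab2 and Map3k7, which form the TAK1 complex, were called higher in AhR-KO (1.10 ± 0.34 and 0.77 ± 0.24), and Irak3 in WT (1.56 ± 0.56), each in that genotype only, and the test of the difference between genotypes is the interaction below. Tab1, Irak2, Chuk, Tbk1 and Irf3 did not pass in any genotype.

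The transcription factor Irf5 and the co-stimulatory genes were at most 5.91 CPM at steady state and were higher in WT after HDM. Irf5 (chr6:29526625-29541871, plus strand) was at 0.966 to 5.91 CPM in WT at steady state and at 247, 84.0, 299 and 269 after HDM. Cd86 (chr16:36603869-36666081, minus strand), the ligand of CD28 on T cells, went from 0.598 to 1.91 CPM to 196, 92.1, 217 and 116, and Cd40 from 0.138 to 1.43 to 63.0, 22.6, 91.0 and 46.5. In each of the 3 genes WT replicate 2 was the lowest HDM library, as it was in the sum of hematopoietic markers. In WT the log2 fold changes were 6.48 ± 1.07 for Irf5, 6.97 ± 0.94 for Cd86, 6.34 ± 0.84 for Cd40 and 4.32 ± 0.67 for Cd80, and in AhR-KO 4.42 ± 1.15, 5.23 ± 1.02, 3.24 ± 0.86 and 1.95, the last above the threshold.

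With the mean log2 level of the hematopoietic markers as a model term, the number of genes called between the states was 0 in WT, 5 in AhR-KO and 0 in CYP1B1-KO (8, 15 and 7 at an unadjusted p under 0.05). The 5 in AhR-KO were Cd14 (log2 fold change 4.12) and Irak1 (1.56), higher, and Tlr5 (-1.27), Traf6 (-2.02) and Tirap (-1.32), lower. Of the genes called without the covariate, 19 of 21 in WT, 14 of 20 in AhR-KO and 19 of 22 in CYP1B1-KO had a smaller fold change with it, and the sign turned for 5, 6 and 7 of them. The markers themselves rose with the state, so that the 2 terms cannot be fully told apart. In AhR-KO, 13 genes were called without HDM replicate 1 and 11, 10 or 8 without steady-state replicate 1, 3 or 4, and Tollip there was lost without steady-state replicate 4 (adjusted p = 0.0541 from edgeR). The calls of Tlr5, Cd14, Irak1 and Cd86, which also passed the filter at steady state, held in every genotype whichever library was left out.

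**Figure D3:**
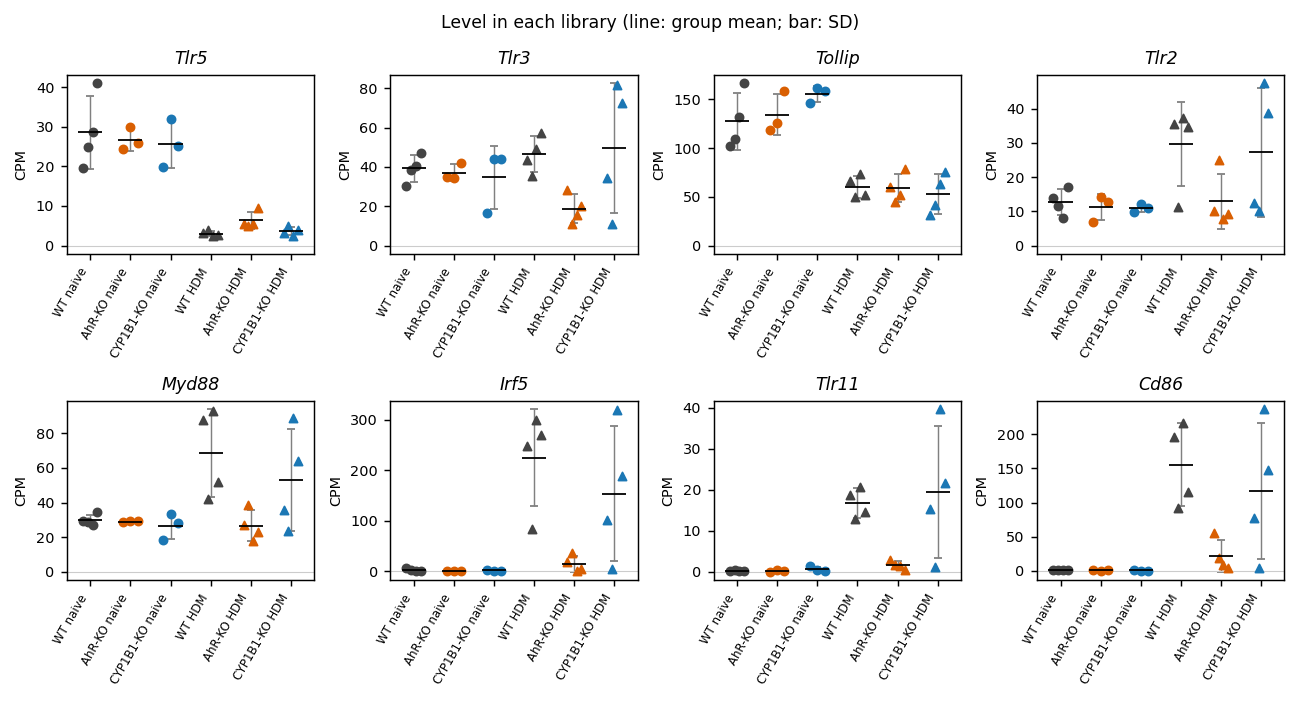
Level in CPM (y axis, from 0) of 8 genes in each library, by group (x axis), with the mean as a line and the SD as a bar. Tlr5 and Tollip lie lower in all HDM groups. Tlr3 lies lower in the AhR-KO HDM libraries, within the wider range of the CYP1B1-KO HDM libraries (10.7 to 81.6 CPM). Irf5, Tlr11 and Cd86 are high in WT and in 3 of 4 CYP1B1-KO HDM libraries, with CYP1B1-KO replicate 2 near the AhR-KO libraries.

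The comparison of genotypes after HDM asks whether levels in ECs of allergic mice differ with AhR or CYP1B1, and the change from steady state is compared further below. Of the 36 genes, 14 were lower in AhR-KO than in WT (12.9% of all genes tested were) and Tlr5 was higher (9.22% of all genes). The median log2 fold change of the 36 was -0.81, against 0 over all genes, and 29 of the 36 fold changes were negative, against 50.1% of all genes. In 11 genes all AhR-KO libraries lay below all WT libraries (9.91% of all genes) and in 1 above (9.60%). By role, the genes called lower were 4 of the 7 endosomal receptors, 3 of the 4 adaptors, all 3 co-stimulatory genes, 1 of the 5 IRAK kinases and Tollip, 1 of the 4 genes of the TRAF6 and TAK1 group, 1 of the 4 of the IKK group and 1 of the 2 transcription factors. Of the 5 surface receptors 0 were called lower, with 3 at an unadjusted p under 0.05 (Tlr1 at -1.69 ± 0.61, Tlr6 at -1.22 ± 0.45 and Tlr2 at -1.14 ± 0.48, edgeR adjusted p = 0.0623, 0.0676 and 0.101), and neither co-receptor was called. Whether the roles differ was not tested.

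**Figure D4:**
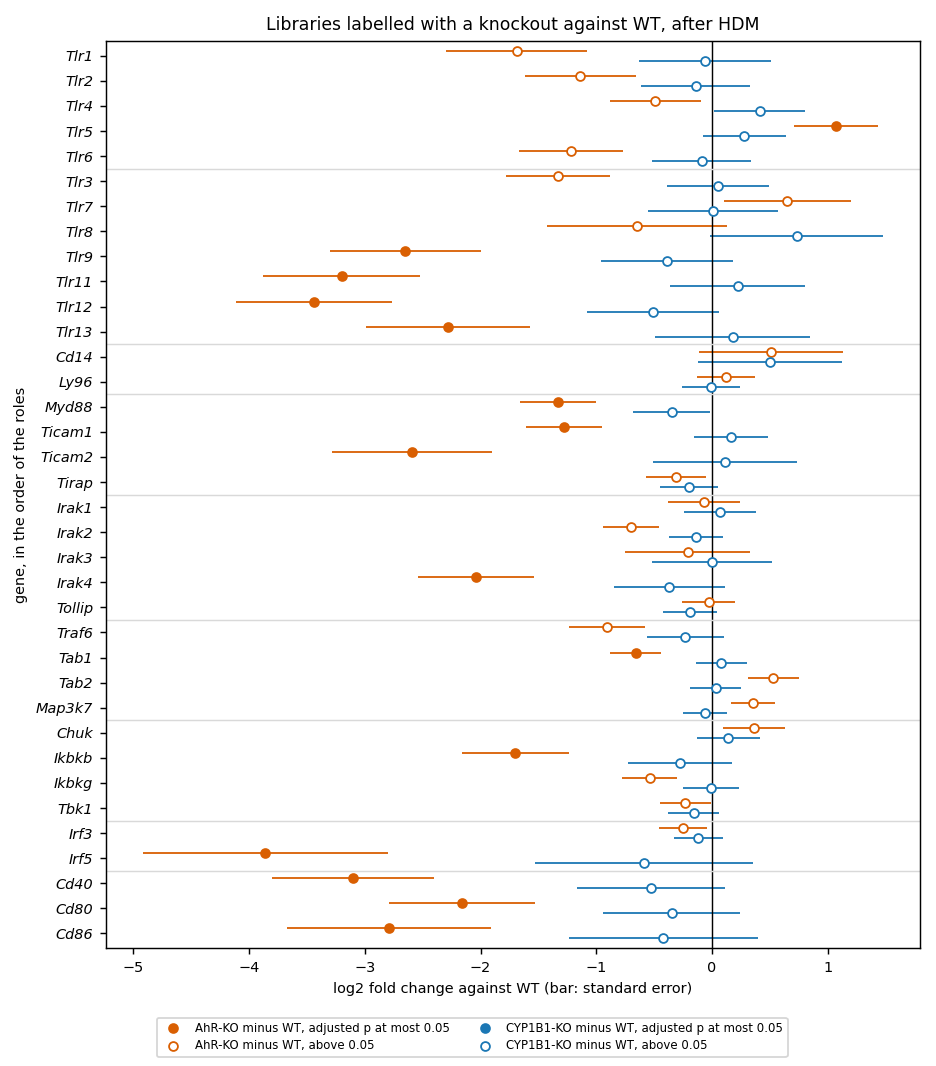
Log2 fold change against WT after HDM (x axis) for each of the 36 genes (y axis) in the libraries labelled AhR-KO and CYP1B1-KO, with standard errors as bars. Filled points passed an adjusted p of 0.05. The AhR-KO points reach from -3.86 for Irf5 to 1.07 for Tlr5, and all CYP1B1-KO points are open.

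The endosomal receptors called lower were Tlr9, Tlr11, Tlr12 and Tlr13. The first 3 of them had 1 to 12, 3 to 83 and 1 to 33 counts per AhR-KO library and were kept by the filter through the groups where they were higher, so their levels carry the description. After HDM, Tlr11 was at 18.7, 12.9, 20.8 and 14.7 CPM in WT and at 2.97, 1.80, 1.36 and 0.530 in AhR-KO, and Tlr12 at 17.5, 8.63, 9.59 and 8.91 and at 1.18, 1.55, 0.455 and 0.353. Neither overlapped. The log2 fold changes were -3.20 ± 0.68 and -3.44 ± 0.67 (edgeR adjusted p = 0.0261 for both). Tlr13 was at 35.6, 14.7, 47.2 and 37.1 CPM in WT and at 11, 9.96, 2.73 and 2.47 in AhR-KO, without overlap (-2.28 ± 0.71, adjusted p = 0.0411 from edgeR). Tlr9 was at 3.27, 0.761, 5.33 and 4.36 CPM and at 0.394, 1.03, 0.455 and 0.177, and WT replicate 2 lay among the AhR-KO libraries (-2.65 ± 0.65, adjusted p = 0.0261 from edgeR). Tlr3, with a log2 fold change of -1.33 ± 0.45, missed the threshold (adjusted p = 0.0508 from edgeR) although its libraries did not overlap.

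Of the adaptors, Myd88, Ticam1 and Ticam2 were lower. Myd88 was at 88.0, 42.1, 92.7 and 51.9 CPM in WT and at 27.0, 38.6, 17.7 and 23.0 in AhR-KO, and Ticam1 at 5.83, 6.09, 11.4 and 10.4 and at 3.51, 3.86, 3.64 and 3.18. Both were without overlap, with log2 fold changes of -1.33 ± 0.33 and -1.28 ± 0.33 (edgeR adjusted p = 0.0268 and 0.0277). Ticam2 was at 15.7, 3.81, 23.4 and 22 CPM in WT and at 3.65, 3.61, 2.27 and 0.707 in AhR-KO, and WT replicate 2 lay just above the highest AhR-KO library (-2.59 ± 0.69, edgeR adjusted p = 0.0289). Tirap, which bridges TLR2 and TLR4 to MyD88, was not called. Of the relay genes, Irak4 (-2.04 ± 0.50), Ikbkb (-1.70 ± 0.46) and Tab1 (-0.66 ± 0.22) were called lower (edgeR adjusted p = 0.0267, 0.0296 and 0.05), and the groups overlapped in each. Tab1 lay at the threshold, and its call was lost in 15 of 20 alternatives. Irak1, Tollip, Tbk1, Map3k7 and Irf3, which serve the same cascade, were not called.

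Irf5 was at 247, 84.0, 299 and 269 CPM in WT and at 18.7, 36.2, 1.36 and 3.53 in AhR-KO. The 2 AhR-KO libraries with Y-linked reads, replicates 3 and 4, were within the range of the 10 steady-state libraries, and all 4 lay below WT (log2 fold change -3.86 ± 1.06, edgeR adjusted p = 0.0301). Over 14.1% of its exonic bases Irf5 overlaps Tnpo3 on the opposite strand, and how strand was treated in counting is not stated. Cd86 was at 196, 92.1, 217 and 116 CPM in WT and at 56.0, 19.5, 8.64 and 4.24 in AhR-KO, and Cd40 at 63.0, 22.6, 91.0 and 46.5 and at 10.6, 8.76, 1.82 and 2.65. Cd80 was at 11.9, 6.85, 19.3 and 12.3 CPM and at 5.55, 2.49, 0.910 and 1.06. The groups were separate in all 3, with log2 fold changes of -2.79 ± 0.88, -3.10 ± 0.70 and -2.16 ± 0.63 (edgeR adjusted p = 0.0414, 0.0261 and 0.0352).

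Tlr5 was the exception in direction. Its levels after HDM were 3.23, 3.81, 2.43 and 2.56 CPM in WT and 5.48, 4.98, 5.46 and 9.54 in AhR-KO, so that each AhR-KO library lay above each WT library (log2 fold change 1.07 ± 0.36, edgeR adjusted p = 0.0484). The call was lost in 12 of 20 alternatives. The 6 alveolar type 1 and 5 club and secretory cell markers had median log2 fold changes of 1.81 and 2.44 in the same comparison (0 and 1 of them called higher), and their part in the Tlr5 difference was not tested. All of these values are below the steady-state range of 19.5 to 41.1 CPM. Cd14 (0.51) and Ly96 (0.12) also had positive fold changes without passing the test.

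Several measures moved with this comparison. Of the 18 hematopoietic markers, 12 were lower in AhR-KO than in WT after HDM and 0 higher, with a median log2 fold change of -2.45, and of the 6 epithelial markers 2 were higher and 0 lower. Of 16 macrophage, monocyte and dendritic cell markers, 14 were tested and 5 were lower. Their summed CPM was 568 to 2169 in WT and 145 to 796 in AhR-KO, against 224 to 292 at steady state. Csf1r alone was at 197 to 280 CPM at steady state and at 64.5 to 109 in AhR-KO after HDM. Of 15 markers tested between the states in AhR-KO, 13 were higher and 1 lower (10.6% and 10.1% of all genes). The sum therefore does not show the rise of the other markers. The part of these markers in the differences was not tested beyond the following model. With the marker level in the model, 0 of the 36 genes were called and 4 were at an unadjusted p under 0.05. The median log2 fold change of the 36 was then -0.06, all 15 called genes had a smaller fold change than without the covariate, and those of Tlr13 (0.30) and Cd86 (0.15) turned positive. The values with the covariate were -1.15 for Tlr11, -1.72 for Tlr12, -0.68 for Cd40, -0.41 for Irf5, -0.38 for Myd88 and 0.21 for Tlr5. Without the 2 AhR-KO libraries that carried Y-linked reads, 0 genes were called, 14 were at an unadjusted p under 0.05, and the median was -0.67. The count was also 0 without AhR-KO replicate 1, 3 or 4 or without WT replicate 3 or 4, 6 without WT replicate 1, and 16 without AhR-KO or WT replicate 2. Requiring at least 10 counts in every library left 7 calls.

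**Figure D5:**
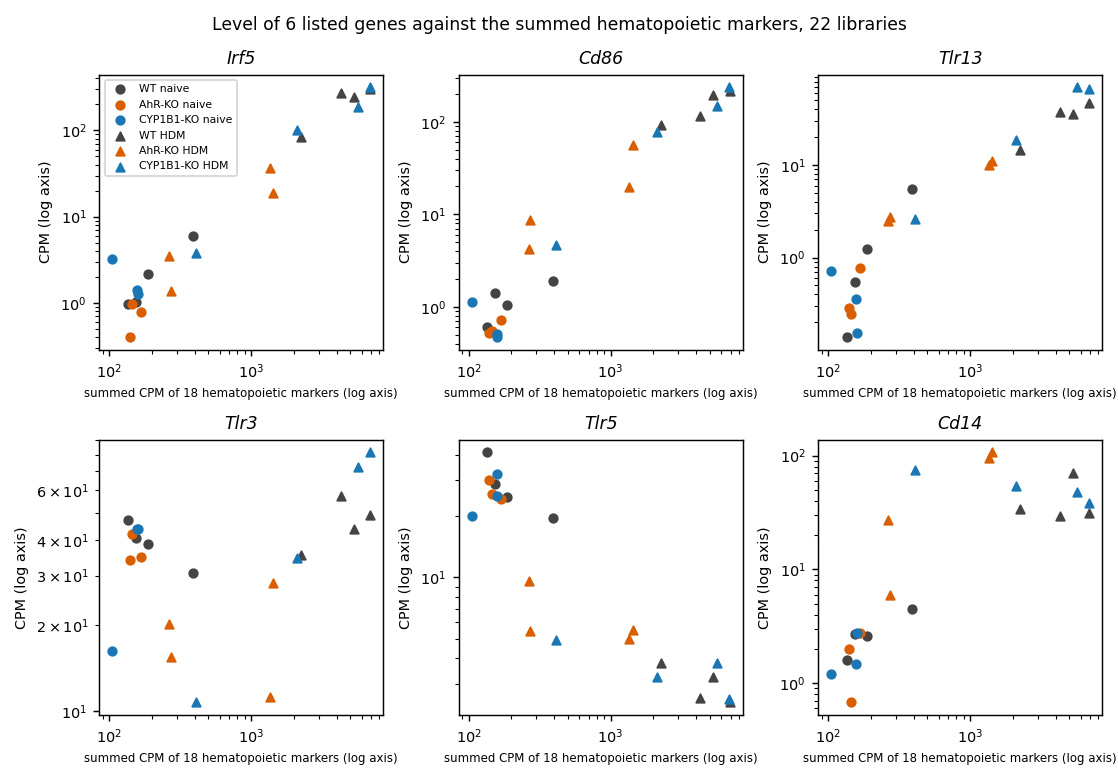
Level of 6 genes in CPM (y axis, log scale) against the summed CPM of 18 pan-hematopoietic markers (x axis, log scale) in the 22 libraries (circles, steady state; triangles, HDM; color, genotype). In the HDM libraries Irf5, Cd86 and Tlr13 lie higher at larger sums, which reach 6928 CPM, Tlr5 lies between 2.43 and 9.54 CPM across all of them, and Cd14 is highest in 2 AhR-KO libraries with sums of 1430 and 1350.

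None of the 36 genes passed the test between CYP1B1-KO and WT after HDM. The quasi-likelihood test of edgeR called 0 (0.00% of all genes tested), with 0 at an unadjusted p under 0.05 (1.65% of all genes) and 0 by the likelihood ratio test, DESeq2 and limma voom, and the median log2 fold change was -0.06. The lowest p-values were those of Myd88 (-0.35 ± 0.33), Tlr4 (0.41 ± 0.39) and Tlr8 (0.73 ± 0.75), each at an edgeR adjusted p of 0.999. The spread within CYP1B1-KO was wide: Irf5 was at 101, 3.75, 318 and 189 CPM and Cd86 at 77.9, 4.61, 237 and 148. Replicate 2 was the lowest library of its group for 23 of the 36 genes, and replicate 3, with the highest sum of hematopoietic markers of the group, the highest for 23. In WT, replicate 2, with the lowest sum of its group, was the lowest for 25 of the 36 genes.

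AhR-KO against CYP1B1-KO after HDM gave 0 calls by the quasi-likelihood test of edgeR (0.00706% of all genes tested), with 23 of the 36 at an unadjusted p under 0.05 (29.9% of all genes), 20 of them lower in AhR-KO. The likelihood ratio test called 16, DESeq2 15 and limma voom 18. The lowest p-values were those of Tlr11 (-3.42 ± 0.68), Tlr12 (-2.94 ± 0.67) and Ticam1 (-1.44 ± 0.33), each at an edgeR adjusted p of 0.0638. Tlr11 and Tlr12 had 3 to 83 and 1 to 33 counts per AhR-KO library. They were kept by the filter through the groups where they were higher, so their tests are given as a description. Ticam1 was at 5.95, 4.90, 13.8 and 13.7 CPM in CYP1B1-KO and at most 3.86 in AhR-KO, without overlap, whereas CYP1B1-KO replicate 2 lay within the AhR-KO range for Tlr11 and Tlr12. Without that library 18 genes were called, and without AhR-KO replicate 2 there were 15.

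Whether the change from steady state to HDM differed between genotypes was tested as an interaction. For AhR-KO, 0 of the 36 genes passed by the quasi-likelihood test of edgeR (0.00% of all genes tested) and 11 were at an unadjusted p under 0.05 (18.3% of all genes), with a median of -0.72. The lowest p-values were those of Tlr12 (-4.61 ± 1.35, edgeR adjusted p = 0.149), Irak4 (-2.09 ± 0.64, adjusted p = 0.149) and Tlr5 (1.19 ± 0.41, adjusted p = 0.155). The likelihood ratio test called 1 gene, DESeq2 6, limma voom 18 and a fit of the 4 groups alone 6. Irak4 was called by all of these but the likelihood ratio test, and Tlr5 by DESeq2 (adjusted p = 0.0470) and voom (adjusted p = 0.0253). Whether the changes of Tlr5 and Irak4 differed between AhR-KO and WT thus depended on the test used. Tlr12 was called by each of the 4, but it passed the filter only through the HDM libraries and rests on 0 to 6 counts per WT library at steady state, so that its interaction is given as a description. For CYP1B1-KO, 0 passed (0.00% of all genes), 2 were at an unadjusted p under 0.05 (2.30%), and the median was -0.01, with 0 called by the other tools. The lowest p-values there were those of Tlr8 (2.20 ± 1.04), Tlr12 (-2.54 ± 1.22) and Tlr13 (2.46 ± 1.33), each at an edgeR adjusted p of 1.00.

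A further 76 genes of the pathway were read in the same fits. In AhR-KO against WT after HDM, 72 were tested, 2 were higher and 17 lower (9.22% and 12.9% of all genes tested), with a median log2 fold change of -0.73 (0 over all genes). The same shares are the background of the groups below. The hematopoietic markers moved in the same direction (12 of 18 lower, median -2.45), and their part in the differences of these genes was not tested. Of 12 negative regulators tested, 6 were lower, among them the ST2 receptor gene Il1rl1 (-2.73 ± 0.66), Tnfaip3, which encodes the ubiquitin editor A20 (-1.65 ± 0.44), and the ubiquitin ligase gene Rnf216 (-0.87 ± 0.24), at edgeR adjusted p = 0.0261, 0.0285 and 0.0312. Of 9 receptor chaperones and endosomal proteases, Unc93b1, which carries nucleic-acid sensing TLRs to endosomes (-2.51 ± 0.65), and Cnpy3 (-1.73 ± 0.40) were lower, and the proteases Lgmn (1.14 ± 0.26) and Ctsl (1.67 ± 0.49) were higher. Unc93b1 was at a mean of 38.9 CPM in AhR-KO and 226 in WT, and Lgmn at 194 and 90.1, both without overlap.

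Of 8 further transcription factors, Nfkb2 (-1.94 ± 0.54) and Irf7 (-1.21 ± 0.35) were lower, while Rel (-1.94 ± 0.66) missed the threshold (edgeR adjusted p = 0.0514). Of 26 further kinases and ubiquitin factors, 5 were lower, among them Tradd (-1 ± 0.26), Map2k3 (-1.05 ± 0.28) and Map2k2 (-1.30 ± 0.36). Of 5 accessory proteins only Cd180, a TLR4-like receptor of B cells and myeloid cells, was called (-2.07 ± 0.60), and of 12 cytokine and chemokine outputs tested only Cxcl9 (-3.30 ± 0.91, edgeR adjusted p = 0.0304). Tnf had a log2 fold change of -1.52 ± 0.56 (edgeR adjusted p = 0.0650) and overlapped. Between HDM and steady state, 37 of the 73 tested were higher and 3 lower in WT (19.0% and 19.4% of all genes), 24 and 4 in AhR-KO (10.6% and 10.1%), and 36 and 7 in CYP1B1-KO (15.5% and 17.9%). Of the 15 cytokine and chemokine outputs, 12 were tested, against 9 at steady state, so that some were kept through the HDM libraries. Of these, 11 were higher in WT, 10 in AhR-KO and 12 in CYP1B1-KO. In CYP1B1-KO against WT after HDM, 0 of 72 were called, as were 0 of 69 in each comparison of genotypes at steady state.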

How the data were processed

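RNA of sorted lung ECs was converted to cDNA with an oligo-dT primer and template switching, tagmented and sequenced in 22 libraries. The deposited values are raw counts per gene, without normalization, which the authors made with featureCounts 2.0.0 after trimming with bbduk and alignment to mm10 by GSNAP. How strand and reads with several positions were treated is not given in the sources used here. GENCODE M21 held 54147 of the 54373 gene identifiers, and only its 21793 protein-coding genes entered the models.

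The quasi-likelihood test of edgeR 4.0.16 with robust estimation was used in R 4.3.3, after filterByExpr (minimum count 10, minimum total count 15) and TMM normalization. The steady-state table (15547 genes) and the HDM table (14161) were each fitted with 3 genotypes, and all 22 libraries (16639 genes) for the change between the states and the interaction. A gene was called at an adjusted p of at most 0.05 (Benjamini-Hochberg over all genes tested). Values after ± are standard errors unless called otherwise, obtained from the fold change and its F statistic (fold change over the root of F). CPM use the TMM library sizes of the 22-library fit, and log2 levels add 1. Groups do not overlap where all libraries of one lie above all of the other.

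The members, the further pathway genes and the markers were chosen with earlier results of these data known. Named with statistics were the members called in each of the 11 comparisons, or the 3 of lowest p where fewer than 3 were, and up to 3 further pathway genes per group. Alternatives were the likelihood ratio test, no filter, 10 counts in every library, RLE normalization, DESeq2 1.42.0, voom of limma 3.58.1 with sample weights, all genes, no dominant predicted genes (at least 1% of a library), the replicate number as a block, the mean log2 CPM of the 18 hematopoietic markers as a covariate, only the compared groups, both AhR-KO HDM libraries with Y-linked reads left out, and each library left out in turn. Replicate numbers were not treated as pairs in the main fits. The code was tested on simulated counts. The authors' lists of changed genes were not used.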

Additional observations from a re-analysis of the deposited data

Results flagged for a closer look

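In 8 of the 144 sets of 4 libraries (36 genes in the WT steady-state group and the 3 HDM groups), the highest or lowest library stood apart from the others by Dixon's ratio of its gap to the range (above the critical value for 4 libraries, on the log2 scale). Chance flags about 1 in 20 such sets. WT HDM replicate 2 was the low library in 3 of them. Tlr2 was at 11.2 CPM there and at 34.5 to 37.3 in the rest of the group (ratio 0.934), Tlr4 at 6.85 against 13.3 to 14.2 (ratio 0.896) and Irf5 at 84 against 247 to 299 (ratio 0.846). This library also had the lowest sum of hematopoietic markers of its group, 2259 CPM, and the part of that in these values was not tested. WT HDM replicate 1 was high for Tlr12, at 17.5 CPM against 8.63 to 9.59 (ratio 0.862), and for Cd14, at 70.8 against 29.7 to 33.7 (ratio 0.854). AhR-KO HDM replicate 4 was high for Tlr5, at 9.54 CPM against 4.98 to 5.48 (ratio 0.854), and replicate 2 for Tab1, at 8.67 against 5.3 to 5.66 (ratio 0.869). At steady state, WT replicate 4 was low for Tlr4, at 2.58 CPM against 4.33 to 4.77 (ratio 0.841).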

How the results depend on the processing

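The comparisons of genotypes at steady state and that of CYP1B1-KO with WT after HDM gave 0 called genes under every alternative run. For AhR-KO against WT after HDM (15 genes), 7 were called with at least 10 counts in every library, 24 by limma voom, 0 with the hematopoietic covariate and 0 without both libraries with Y-linked reads, and 0 to 16 when single libraries were left out. For AhR-KO against CYP1B1-KO after HDM (0 genes), the likelihood ratio test called 16, DESeq2 15 and limma voom 18, and leaving out single libraries gave 0 to 18. For the interaction of AhR-KO and HDM (0 genes), the values were 1 (likelihood ratio test), 6 (DESeq2), 18 (voom) and 6 (only the 4 groups), and 0 to 3 without single libraries. Between the states, at least 10 counts in every library left 10 of 21 calls in number in WT, 11 of 20 in AhR-KO and 11 of 22 in CYP1B1-KO, where fewer genes were tested, and the covariate left 0, 5 and 0. Leaving out single libraries gave 19 to 21, 8 to 22 and 19 to 24. For the other changes the cause was not tested.

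Among the genes named by the rule in each comparison, and under the alternatives run, fold changes reversed only with the hematopoietic covariate. Members not called, such as Tlr1, Tlr2 and Tlr4 (0.19, 0.15 and 0.21 in AhR-KO against WT after HDM), turned with it too. The named genes became 0.05 for Tlr13 (AhR-KO against WT, steady state), and 0.30 for Tlr13 and 0.15 for Cd86 (AhR-KO against WT, HDM). Between the states in WT they became -1.17 for Tlr13, -0.47 for Ikbkb, -0.22 for Myd88, -0.11 for Irak3 and -0.63 for Tlr2. In AhR-KO they became -0.36 for Irf5, -0.06 for Tlr1, -0.36 for Cd40, -0.27 for Tlr13, -0.04 for Tlr11 and -0.34 for Ticam2. In CYP1B1-KO they became -0.36 for Cd80, -0.06 for Tlr13, -0.77 for Irf5, -0.32 for Irak4, -0.98 for Ikbkb, -0.46 for Myd88 and -0.57 for Tlr2.

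The labels give groups the same replicate numbers. Same-numbered libraries correlated at -0.02 to 0.24 at steady state (4 of 8 pairs over 0.1) and at -0.47 to 0.67 after HDM (4 of 12). Libraries of different numbers were not compared, so these values do not decide whether the numbers pair the libraries. With the replicate number as a block, AhR-KO against WT after HDM gave 0 calls, with 20 at an unadjusted p under 0.05, and the changes between the states 19 in WT, 17 in AhR-KO and 21 in CYP1B1-KO. The other comparisons stayed at 0.

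In the shallowest HDM library (1180756 counts without the dominant predicted genes) 3 counts are 1.36 CPM. This is AhR-KO replicate 3, where Tlr7, Tlr8, Tlr9, Tlr11, Tlr12, Irf5 and Cd80 had 0 to 3 counts each. The fold changes of Tlr1, Tlr6, Tlr9, Tlr11, Tlr12 and Ticam2 between the states rest on few steady-state counts.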
